A study of Drosophila melanogaster with 6 samples.

Results

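The non-crosslinked libraries of an eCLIP experiment on Asterix (Gtsf1) were examined as a pair, the RNA recovered by the pull-down without UV light against the RNA of the matching input. Annotated features were summed per gene and part (exon or intron), transposon consensus, tRNA isotype, snRNA, snoRNA or other named RNA. The 4090 items with at least 20 reads in both libraries together were kept, of 18238 with reads in the pair and 23477 with reads in any library of the series. They held 98.95% of the annotated reads of the pair. Levels are given as RPM, the read count scaled to the annotated reads of its library, and the ratio of an item is the log2 of its RPM in the pull-down (IP) over the input, with 0.5 reads added to both counts.

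The series holds 6 libraries from OSS cells, a cultured line of the ovarian somatic cells that surround the germline in Drosophila. In all 6 libraries the cells carried Asterix tagged at its C-terminus with GFP-FRT-Precission-V5-3xFLAG-P2A and driven by its own promoter, so that no library comes from untagged cells. The crosslinked groups (2 IP and 2 input libraries) were irradiated at 254 nm with 400 mJ, and the non-crosslinked groups (1 IP and 1 input library) were not irradiated. Lysates were treated with RNase I, the IP used anti-FLAG M2 magnetic beads, and input samples were kept back without it. Whether the cells are 1 clone, and whether the libraries came from separate cultures, is not stated in the labels.

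Asterix is a small zinc-finger protein of the nuclear piRNA pathway, in which Piwi and its piRNAs direct transcriptional silencing of transposons. In ovarian somatic cells most of these piRNAs come from the flamenco locus and target LTR retrotransposons of the Gypsy family. In eCLIP, UV light links a protein covalently to the RNA it touches. RNA recovered without that step is read as the background of the purification: free or indirectly held RNA that survives the washes. With no library from untagged cells, RNA held by the beads cannot be told apart here from RNA that Asterix holds without a covalent link.

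Depth set how far single items could be read. The input had 4194751 reads, of which 4023956 were annotated, and the IP had 2619716, of which 2282994 were annotated. A count of 3 reads, taken as the floor, was 0.746 RPM in the input and 1.31 RPM in the IP. Ribosomal RNA made up 84.2% of annotated reads in the input and 85.8% in the IP. With 1 library in each group there is no replicate, no test was made, and each interval below is a 95% interval of counting error only, which PCR copies would widen.

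The non-crosslinked input stood apart from both crosslinked inputs, and every ratio below rests on it. Relative to their mean share it held 15.5 times the tRNA, 0.167 times the snoRNA, 0.238 times the snRNA and 0.391 times the LTR transposon reads. For that reason classes, lists and leading items are also given with the mean of the crosslinked inputs in place of the non-crosslinked input. That second reference comes from irradiated cells, so with it the pull-down and the UV light cannot be told apart.

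The cells' labelled type was checked on marker genes. The somatic regulator tj had 50.7 RPM of exonic reads in the input and 39.9 in the IP, and piwi exons had 424 and 52.8. The 12 germline markers together had 23.9 RPM of exonic reads in the input and 10.5 in the IP, most of it from krimp and del. The defining germline genes vas, nos, bam and osk had 1, 4, 0.5 and 0.2 exonic reads in the input. Introns lay outside this sum, and those of AGO3 and qin, on the same list, had 102.8 and 73.8 input reads. The tagged gene arx itself had 1 exonic read in the input and 3.5 in the IP, below the minimum.

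Against its own input, the pull-down left most items lower and a small set higher. At least 2-fold higher were 331 items (8.09% of those kept), and at least 2-fold lower were 1487 (36.4%). The median log2 ratio over all items was -0.70, against -0.13 and -0.08 for the same items in the crosslinked pairs 1 and 2. Of the 4090 items 2661 (65.1%) lay below both crosslinked pairs and 1075 above both. The 95% counting interval excluded equal levels for 314 of the 331 and for 1305 of the 1487, and 287 of the lower items had 3 reads or fewer in the IP. The scale sets this balance, since TMM scaling moves every ratio up by 0.69 and gives 724 higher and 649 lower.

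**Figure D1:**
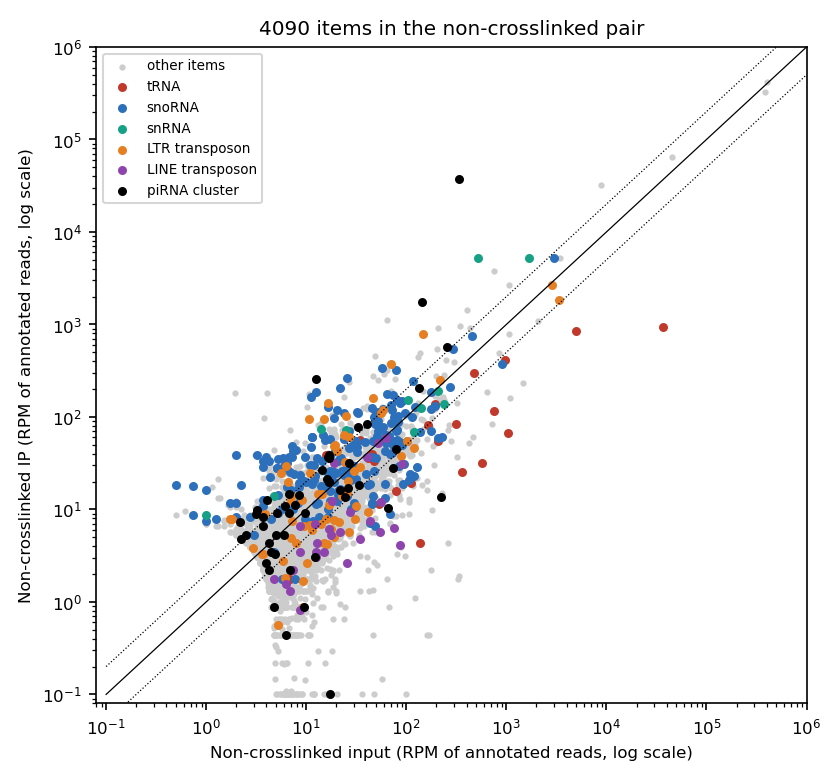
Each point is 1 of the 4090 items, with its level in the non-crosslinked input on the horizontal axis and in the non-crosslinked IP on the vertical axis (RPM of annotated reads, log scales; levels under 0.1 RPM are drawn at 0.1). The solid line marks equal levels and the dotted lines a 2-fold difference. tRNA and LINE points lie mostly below the line, snRNA and many snoRNA points above it, and the black point far above it is the piRNA cluster piRNAdb-15.

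Which items counted as higher or lower depended on the reference. Against the crosslinked inputs 200 items were at least 2-fold higher (4.89%) and 2047 lower (50.0%), with a median log2 ratio of -1.0. Of the 331 higher against their own input, 93 (28.1%) were also higher against the crosslinked inputs, beside 4.89% of all items. They made up 46.5% of the 200. These 93 held 38 mRNA introns, 16 LTR transposons, 12 mRNA exons, 10 piRNA clusters and 5 pseudogenes. A further 39 of the 331 were at least 2-fold lower against the crosslinked inputs, and 29 of those 39 were snoRNAs. Of the 1487 lower items, 1132 (76.1%) were lower against both references, where 50.0% of all items were lower against the crosslinked inputs. Both ratios share the IP library.

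The class shares show the same dependence. tRNA took 4.75% of annotated reads in the input and 0.337% in the IP, a ratio of 0.0708, where the crosslinked pairs gave 3.36 and 3.96. Its ratio to the crosslinked inputs was 1.09, so the tRNA share of the IP was close to theirs. snRNA took 0.307% of the input and 1.13% of the IP, a ratio of 3.67 (2.69 and 2.71 in the crosslinked pairs), but 0.874 against the crosslinked inputs. snoRNA took 1.28% and 1.77%, a ratio of 1.38, and only 0.230 against the crosslinked inputs. For these classes the direction turns with the reference.

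Other classes kept their direction under both references. mRNA exons took 4.72% of the input and 3.00% of the IP, and mRNA introns 2.77% and 2.03%. Their ratios were 0.635 and 0.734, and 0.525 and 0.614 against the crosslinked inputs. LINE transposons had a ratio of 0.388 (0.549 against the crosslinked inputs), and DNA transposons one of 0.300 (0.203). Pseudogenes, all of rRNA, had a ratio of 4.63 (7.18), and annotated piRNA clusters one of 19.9 (14.7). As shares of annotated reads, mRNA, LINE and DNA transposons were thus lower in the pull-down without UV light, and these last classes higher, with either input as the reference. Both ratios share the IP library and its total. TMM scaling moves every log2 ratio to the non-crosslinked input up by 0.69, so the mRNA direction depends on the total chosen.

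**Figure D2:**
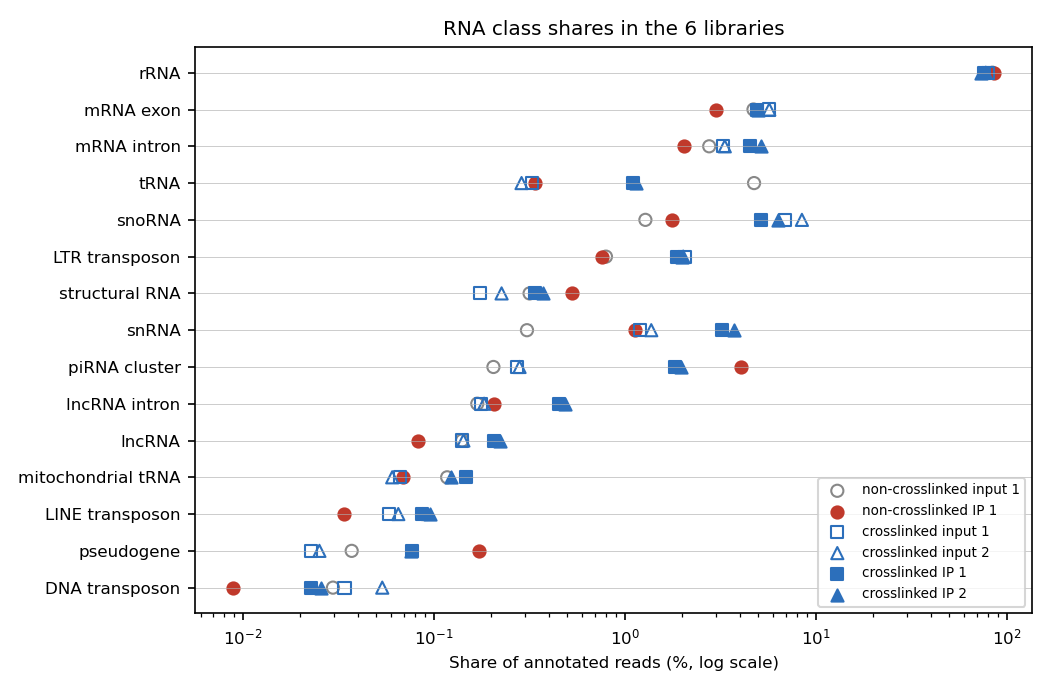
The share of annotated reads (percent, log scale) of 15 RNA classes is plotted for each of the 6 libraries, with open symbols for inputs and filled ones for IPs. The grey open circle (non-crosslinked input) lies far right of the open blue symbols (crosslinked inputs) for tRNA and left of them for snoRNA, snRNA and LTR transposons, while the red circle (non-crosslinked IP) lies beside the open blue symbols for tRNA, snRNA and mitochondrial tRNA.

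The highest item was the piRNA cluster entry piRNAdb-15, a single annotated feature. It had 1347.5 reads in the input and 84541.5 in the IP, or 335 and 37031 RPM, a log2 ratio of 6.79 (6.71 to 6.87). In the crosslinked libraries it had 443 and 446 RPM in the inputs and 14024 and 15091 RPM in the IPs. Its level was therefore highest in the IP without UV light, and it alone held 90.9% of the cluster reads there. Without it the share ratio of the clusters was 2.16.

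Several other clusters stood above the input as well. Of 51 cluster entries kept, 17 were at least 2-fold higher and 9 lower, with a median log2 ratio of 0.41. Over all items 8.09% were higher and 36.4% lower, with a median of -0.70. Against the crosslinked inputs 11 of the 51 were higher and 11 lower, with a median of 0.07, beside -1.0 for all items. The entry chrX-5A3.1 had 142 RPM in the input and 1750 in the IP (log2 3.62), and piRNAdb-5 had 12.4 and 260 (log2 4.37). Intron reads of the flamenco transcript flam, the main source of somatic piRNAs, had a log2 ratio of 1.82 (1.73 to 1.91), and 2.45 and 2.70 in the crosslinked pairs. They remained 1.37 above the crosslinked inputs, and the reads of flam outside introns were below the minimum.

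Among rRNA-related items the long species lay near equal levels and 2S and 5S stood higher. Pre-rRNA had a log2 ratio of 0.08 and 28S rRNA one of -0.22, while 18S had 0.54 and 5.8S had 0.58. The 2S rRNA, a short fly-specific piece of the large-subunit rRNA, had 3.75 RPM in the input and 96.6 in the IP (log2 4.64), and stood 2.95 above the crosslinked inputs. The 5S rRNA had 8898 and 32275 RPM (log2 1.86), but -0.23 against the crosslinked inputs, whose 5S levels were 36215 and 39740 RPM. The mitochondrial rRNAs mtlrRNA and mtsrRNA had log2 ratios of 1.35 and 1.08, and -0.40 and 0.10 against the crosslinked inputs. Reads of 2 28S pseudogenes stood higher too: 28SrRNA-Psi:CR40596 and 28SrRNA-Psi:CR41609 had log2 ratios of 4.13 and 4.05. Their reads can come from the nearly identical 28S copies, so their split is uncertain.

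tRNA isotypes were nearly all lower. Of 22 isotypes 15 were at least 2-fold lower and 1 higher, with a median log2 ratio of -1.93. All 22 lay below both crosslinked pairs, and in all 22 the non-crosslinked input lay above the mean of the crosslinked inputs. Over all items 65.1% lay below both pairs, and in 1054 of 4090 the non-crosslinked input lay above that mean. tRNA-Asp had 36944 RPM in the input and 946 in the IP (log2 -5.29), and it made up 77.7% of the tRNA reads of the input and 28.1% of those of the IP. Without it the tRNA share ratio was 0.228. tRNA-Tyr followed at -4.91, tRNA-Gln at -4.15, tRNA-Asn at -3.92 and tRNA-Val at -3.81.

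Both methionine isotypes lay at the other end. The initiator tRNA-iMet, which starts translation, had 15.9 RPM in the input and 38.5 in the IP (log2 1.27), and the elongator tRNA-Met had 34.8 and 56.5 (log2 0.70). tRNA-Cys and tRNA-Phe had log2 ratios of -0.20 and -0.21, with counting intervals that include equal levels. Read against the crosslinked inputs, 10 of the 22 isotypes were at least 2-fold higher and 1 lower. tRNA-Glu, with 4980 RPM in the input and 859 in the IP (log2 -2.54), was then 0.37 above its reference. By anticodon, 30 of 45 were at least 2-fold lower and 1 higher.

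**Figure D3:**
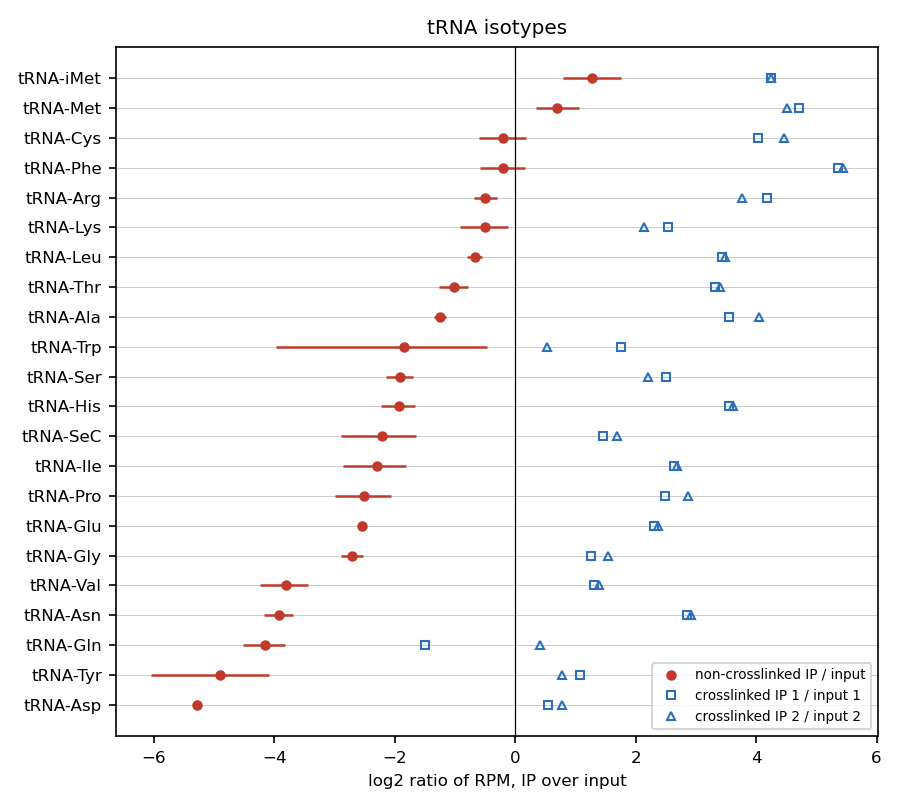
Red circles give the log2 ratio of RPM of the non-crosslinked IP over its input for each of 22 tRNA isotypes, with lines for the 95% counting interval, and open blue symbols give the crosslinked pairs. Every red circle lies left of both blue symbols, and 2 of them, tRNA-iMet and tRNA-Met, lie right of 0.

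Mitochondrial tRNAs and mRNAs were mostly below their own input, unlike the mitochondrial rRNAs. So were items in general, of which 1032 of 4090 were above 0. Of 19 mitochondrial tRNAs 11 were at least 2-fold lower and 1 higher, with a median log2 ratio of -1.17. All 19 lay below both crosslinked pairs, as did 65.1% of all items. Relative to the crosslinked inputs 5 of the 19 were higher and 5 lower. The item above 2-fold was mt:tRNA-Trp-TCA, with 26.6 RPM in the input and 238 in the IP (log2 3.16). Its crosslinked inputs had 1.91 and 1.43 RPM and its crosslinked IPs 38.1 and 31.2, so its level was highest in the non-crosslinked IP. Of the 13 mitochondrial mRNAs 5 were at least 2-fold lower and none was higher, near the 36.4% of all items that were lower. Their median was -0.92, beside -0.70 for all items, and it was 0.88 and 0.73 in the crosslinked pairs. The complex I subunit mRNAs mt_ND6 and mt_ND2 were lowest, at -2.23 and -2.01, and the cytochrome oxidase mRNA mt_CoI was at -0.20. The median of these mRNAs was 0.52 against the crosslinked inputs.

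The snoRNA families separated. C/D snoRNAs, which guide ribose methylation, had 54 of 82 items at least 2-fold higher and 2 lower, with a median log2 ratio of 1.80. H/ACA snoRNAs, which guide pseudouridylation, had 12 of 103 higher and 23 lower, with a median of -0.16. Over all items 8.09% were higher and 36.4% lower, with a median of -0.70, so the H/ACA median lay above that of all items. The same order of the families was seen in the crosslinked pairs, where the medians were 0.35 and 0.72 for C/D and -0.83 in both pairs for H/ACA. It was also seen against the crosslinked inputs, with medians of -0.92 and -2.75, so the gap between the families held while the sign of the C/D median did not.

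Single snoRNAs show the range. The C/D snoRNA Or-CD1 had 50 reads in the input and 428 in the IP, or 12.4 and 187 RPM (log2 3.90, 3.49 to 4.37). Me28S-U1848 had 11.2 and 165 RPM (log2 3.87). Their crosslinked inputs lay between 107 and 128 RPM, so in both cases the non-crosslinked input was the low library, and their IPs stood only 0.80 and 0.41 above the crosslinked inputs. Of the H/ACA snoRNAs, Psi28S-3405a had 68.6 RPM in the input and 8.98 in the IP (log2 -2.90), and Psi28S-2444 had 48.5 and 6.57 (log2 -2.84). Both were also below input in the crosslinked pairs, at -3.26 or lower. The H/ACA snoRNA Psi28S-2949 went against its family, at 3.25. Over all 211 snoRNAs, not 1 had a non-crosslinked input above the mean of the crosslinked inputs.

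The snRNAs divided by species. U1, which recognises the 5′ splice site, had 516 RPM in the input and 5173 in the IP (log2 3.33, 3.26 to 3.39), and U2, which pairs with the branch point, had 1700 and 5249 (log2 1.63). U4, U5 and U6, the snRNAs of the tri-snRNP, had log2 ratios of -0.81, -0.18 and -0.13. The minor-spliceosome snRNAs U11, U12 and U4atac were all higher, at 1.52, 2.39 and 3.01, U4atac with only 4 input reads. In the crosslinked pairs U1 stood at 2.19 and 2.38, U2 at 1.75 and 1.84, and U4 at -1.25 and -1.27. Against the crosslinked inputs U1 and U2 were 0.45 and 0.47 above and U4, U5 and U6 were at -2.75 or lower, so U1 and U2 stood above the other major snRNAs with either reference. U11, U12 and U4atac were then at -0.68, 0.49 and -0.27.

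Other structural RNAs differed from each other. RNaseMRP:RNA, a component of the ribonuclease that processes rRNA precursors, had 750 RPM in the input and 3802 in the IP (log2 2.34), and 2.47 against the crosslinked inputs. RNaseP:RNA, which matures tRNA ends, was at -0.63. 7SL, the RNA of the signal recognition particle, was at -0.93 (crosslinked pairs 0.51 and 0.65), but 1.26 above the crosslinked inputs. 7SK, a regulator of transcription elongation, was at 0.55 and lay 1.53 below the crosslinked inputs.

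**Figure D4:**
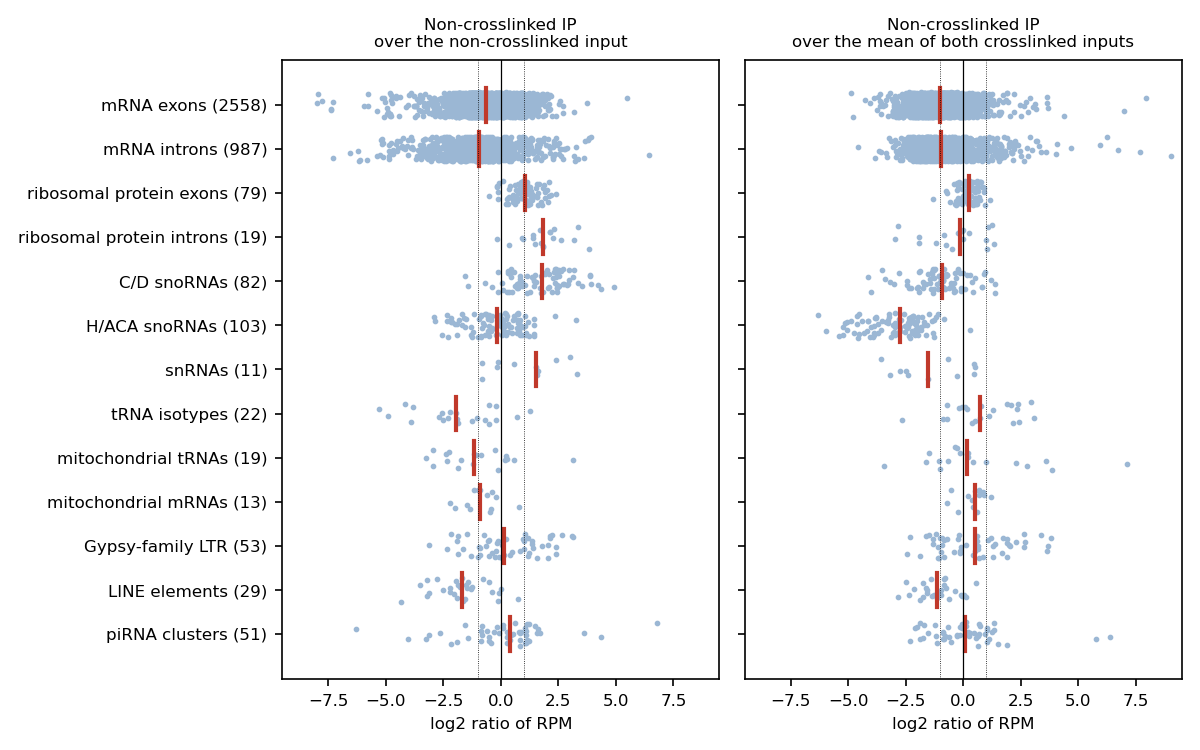
Points are items of 13 groups (number of items in brackets) and red bars are group medians, on the log2 ratio of the non-crosslinked IP over its own input (left) and over the mean of both crosslinked inputs (right). Dotted lines mark 2-fold. C/D snoRNAs lie right of H/ACA snoRNAs in both panels, the tRNA and mitochondrial medians cross 0 between the panels, and ribosomal protein exons lie right of all mRNA exons in both.

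mRNA exons had a median log2 ratio of -0.65, with 106 of 2558 items at least 2-fold higher and 865 lower. Exons of cytosolic ribosomal protein genes were the main exception, with 41 of 79 higher and none lower. Their median was 1.03, against 0.66 and 1.01 in the crosslinked pairs. RpL5 had 46 reads in the input and 138 in the IP, or 11.4 and 60.4 RPM (log2 2.39), and RpLP2 had 9.28 and 42.5 RPM (log2 2.19). With the crosslinked inputs as reference the median was 0.24, with 1 higher and 1 lower, beside a median of -1.02 for all mRNA exons.

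Other lists of abundant mRNAs had medians near 0 against their own input, and below it against the crosslinked inputs. Exons of 31 translation factors had a median of 0.02 with 4 higher and none lower, the initiation factor eIF2alpha at 1.76 (0.76 to 2.95) and the elongation factor subunit eEF1beta at 1.61 being the highest. The 16 SR and hnRNP splicing regulators had a median of -0.05 with no exon item past 2-fold, and the 5 replication histones one of 0.10 with none past 2-fold. Of 16 cytoskeleton and chaperone mRNAs 1 was lower, Tm1, the tropomyosin gene, at -1.42. Their median was -0.11. Against the crosslinked inputs the medians were -0.50 for translation factors (4 of 31 lower), -0.80 for SR and hnRNP genes (7 of 16), -0.97 for histones (2 of 5) and -0.83 for the cytoskeleton and chaperones (7 of 16). All mRNA exons had a median of -1.02 against that reference, with 1307 of 2558 lower. With TMM scaling against their own input the medians of these lists lay between 0.58 and 0.79.

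Of 15 exon items of the somatic piRNA pathway 4 were at least 2-fold lower and 1 higher, with a median of -0.22, beside -0.65 and 865 of 2558 lower for all mRNA exons. The median was -0.90 against the crosslinked inputs, 0.47 with TMM scaling and -1.44 with a minimum of 100 reads. Of its 3 intron items 2 were higher and none lower, beside 75 of 987 higher and 466 lower for all mRNA introns. Against the crosslinked inputs 1 of the 3 was higher and 2 were lower, with a median of -1.2. The lower exon items against their own input were piwi at -3.0, sov at -2.10, egg (the H3K9 methyltransferase) at -1.58 and Su(var)2-10 (a SUMO ligase) at -1.01. The higher one was the gene of the heterochromatin protein HP1a, with 11 input and 18 IP reads (log2 1.5, 0.37 to 2.76). The piwi input of 424 RPM stood against 87.6 and 112 RPM in the crosslinked inputs. Of the ovarian somatic markers 4 of 6 exon items were lower, among them Mmp1 at -1.80 and zfh1 at -1.40, and tj was at -0.34. The median of these 6 was -1.20, and -1.10 against the crosslinked inputs.

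The lowest items had many reads in the input and few or none in the IP, and most lay in 1 annotated feature. The long noncoding RNA CR44537 had 404 reads in the input and none in the IP, and was at least 76.4-fold lower. Exons of the cyclin-dependent kinase subunit gene Cks85A had 675 input reads and 1 IP read (log2 -8.00, -13.89 to -6.10), and those of the collagen IV gene vkg had 645 and 1 (log2 -7.93, -13.82 to -6.03). For Cks85A and vkg a single annotated feature held 99.9% and 99.2% of the reads of the pair. In the crosslinked inputs Cks85A had 2.11 and 5.17 RPM and CR44537 had 3.76 and 5.00, against 168 and 100.4 RPM in the non-crosslinked input. Intron reads of Ptr (336 RPM in the input, 1.93 in the IP) and bs (177 and 2.21) were likewise low in the IP, with crosslinked inputs between 6.68 and 12.1 RPM. Ptr was spread over more features, the largest holding 33.3% of its reads.

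The level of the input and the ratio share a library, so that an item with a high input tends to a low ratio by construction, and the following counts are a description. In 100 items the non-crosslinked input was at least 10-fold above the crosslinked inputs, and 91 of them were at least 2-fold lower in the IP, beside 36.4% of all items. Their median was -4.27, beside -0.70 for all items. Of the 71 mRNA items among them, 35 had at least 90% of their reads in 1 annotated feature. That share was not computed over all mRNA items, so 35 of 71 cannot be called high or low. In 46 items the input was at least 10-fold below the crosslinked inputs, and their median was 1.27. Of these 46 items 38 were snoRNAs, as were 211 of all 4090. Over all items, 361 of the 1487 lower ones (24.3%) had a non-crosslinked input at least 2-fold above the crosslinked inputs, as did 11.6% of all items. Of the 331 higher ones, 196 (59.2%) had one at least 2-fold below, as did 14.0% of all items.

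mRNA introns had a median of -0.95, with 75 of 987 at least 2-fold higher and 466 lower. Of the 987, 912 lay below both crosslinked pairs, beside 65.1% of all items. The highest was CG8303, with 7.9 reads in the input and 418 in the IP, or 1.96 and 183 RPM (log2 6.46, 5.53 to 7.75). The crosslinked pairs gave 6.61 and 6.01 for it, at 29.4 and 25.5 RPM in the IPs, so its level was higher in the IP without UV light. Exons of CG16779 had a similar pattern, with 4.03 and 184 RPM (log2 5.47) and crosslinked IPs of 20.3 and 24.6 RPM. Introns of unc-13, a synaptic vesicle priming factor, had 10.2 and 129 RPM (log2 3.64), and remained 3.39 above the crosslinked inputs.

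Introns of genes that carry snoRNAs stood apart from other introns. Of 58 such introns, found by gene spans in RefSeq on either strand, 35 were at least 2-fold higher and 3 lower, with a median of 1.53. Of the 928 others, 40 were higher and 462 lower, with a median of -1.0. Within the same gene, the intron ratio exceeded the exon ratio by a median of 1.53 over 50 genes with a snoRNA and by -0.05 over 587 genes without one. The non-crosslinked input of these introns lay 1.92 below the crosslinked inputs in the median, and against the crosslinked inputs their median was -0.24, with -0.99 for the other introns.

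Of the 58 introns, 19 belong to genes of ribosomal proteins. Of 19 intron items of the ribosomal protein list 15 were higher and none lower, with a median of 1.84. RpL36A introns had 28 and 165 reads, or 6.96 and 72.3 RPM (log2 3.36). Introns of the hnRNP gene Hrb98DE and of SC35, a splicing factor gene, also lie around snoRNAs and had log2 ratios of 2.57 and 1.97. Reads in such introns may be counted partly for the snoRNA and partly for the host, so the split is uncertain. The ribosomal protein intron median was -0.13 against the crosslinked inputs, with 4 higher and 5 lower.

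LTR transposons as a class lay near equal levels, with 0.797% of annotated reads in the input and 0.760% in the IP. The ratio was 0.953, with Copia holding 42.2% of the class in the input, and without Copia it was 1.25. Of 53 Gypsy-family consensus sequences 21 were at least 2-fold higher and 9 lower, with a median log2 ratio of 0.15. That median was 0.65 with a minimum of 50 reads, 1.19 with 100 and 1.07 over single features. Over all items 8.09% were higher and 36.4% lower, with a median of -0.70. Of 8 Pao-family ones 6 were lower and none higher, and of 5 Copia-family ones 2 were lower and none higher. Their medians against the crosslinked inputs were -1.64 and -1.79, beside -1.0 for all items. Every LTR element that was at least 2-fold higher therefore belonged to the Gypsy-family list.

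The highest Gypsy-family elements were also above input in both crosslinked pairs. DM176, the 17.6 element, had 16.5 RPM in the input and 142 in the IP (log2 3.10, 2.73 to 3.52), with 4.70 and 4.69 in the crosslinked pairs. MDG1 and DM412 had log2 ratios of 3.14 and 2.66. Relative to the crosslinked inputs DM176, MDG1 and DM412 stood at 3.35, 3.65 and 3.68. Log2 ratios for Stalker2 and TABOR were 2.22 and 2.15, and those of IDEFIX and ROVER_DM 1.37 and 1.35. Of the 32 LTR sequences with at least 100 reads, 29 lay below both crosslinked pairs, beside 65.1% of all items. Among the lower ones were NOMAD at -2.18 and BURDOCK at -2.32, which were above 0 in both crosslinked pairs. Against the crosslinked inputs 20 of the 53 Gypsy-family sequences were higher and 12 lower, with a median of 0.52. Over all items 4.89% were higher and 50.0% lower against that reference.

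**Figure D5:**
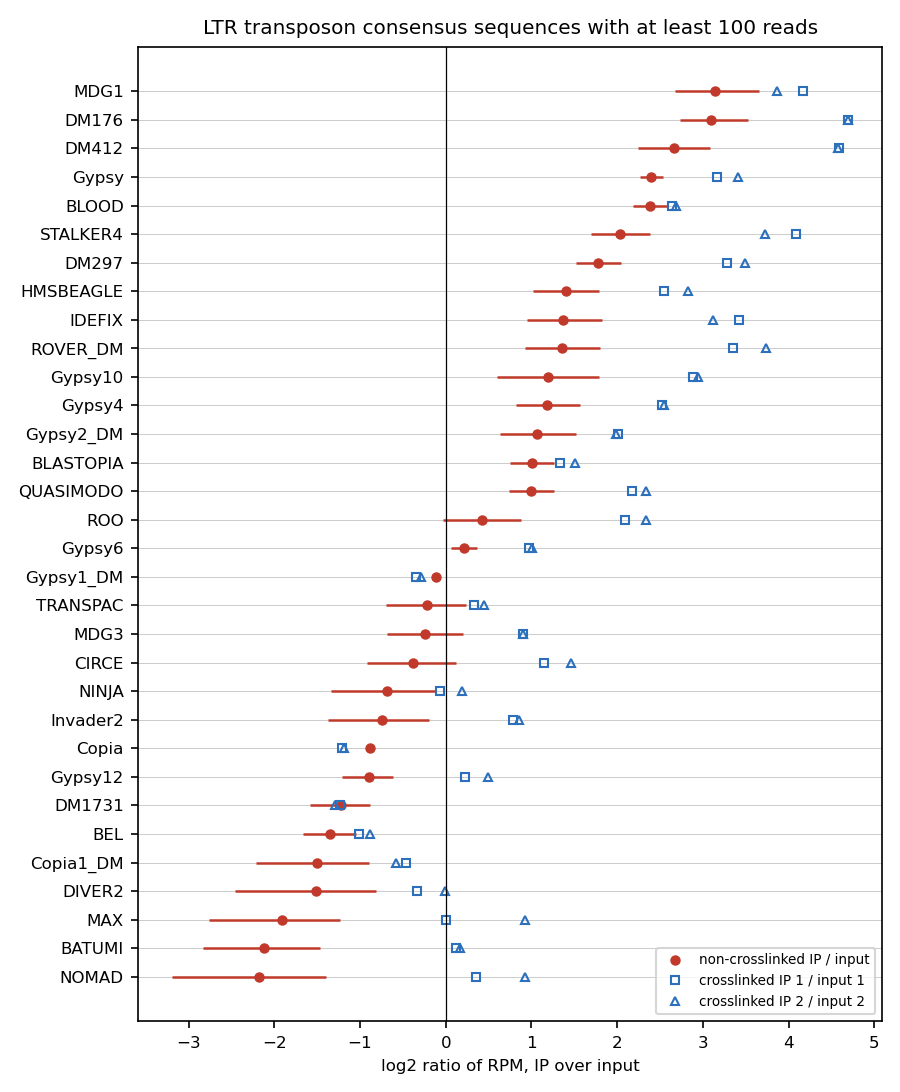
Red circles give the log2 ratio of RPM of the non-crosslinked IP over its input for the 32 LTR transposon consensus sequences with at least 100 reads, with lines for the 95% counting interval, and open blue symbols give the crosslinked pairs. MDG1, DM176 and DM412 lie highest, and 29 of the 32 red circles lie left of both blue symbols.

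LINE elements summed by consensus were mostly lower. Of 29 consensus sequences 22 were at least 2-fold lower and none higher, with a median of -1.70. All 29 lay below both crosslinked pairs, as did 65.1% of all items. G_DM had 87.2 RPM in the input and 4.16 in the IP (log2 -4.32), though 1 feature held 72.0% of its reads and the IP lay only 0.09 below the crosslinked inputs. R1_DM, which inserts into rRNA genes, had 55.2 and 5.69 RPM (log2 -3.23), and the telomeric elements HETA, TART and TAHRE had log2 ratios of -1.89, -1.43 and -3.10, TAHRE with 1.86 IP reads and an interval of -6.41 to -1.35. DOC was the highest, at 0.74 (0.25 to 1.22). The median of the 21 elements that are neither telomeric nor R1 or R2 was -1.65, but 0.03 over their single features with at least 20 reads. With the crosslinked inputs as reference 16 of the 29 were lower and none higher.

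Ratios with and without UV light were set side by side for all items. The pairs share no library. Pearson's r across the 4090 items was 0.352 with crosslinked pair 1 and 0.391 with pair 2, where the crosslinked pairs had 0.901 with each other. Of 363 items (8.88%) at least 2-fold higher in both crosslinked pairs, 151 (41.6%) were higher without UV light, beside 8.09% of all items. These 151 are 45.6% of the 331. Of 228 items (5.57%) lower in both, 169 (74.1%) were lower without UV light, beside 36.4% of all items. Another 65 items, 17.9% of the 363, were higher in both crosslinked pairs and lower in the non-crosslinked pair, a smaller share than over all items. Not 1 of the 331 was lower in both crosslinked pairs. Items share reads and depth, and they are not independent, so r is given as a description.

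Position against the minimum and level also bear on single values. The 126 items with 20 to 21 reads, just inside the minimum, had a median log2 ratio of -0.68 and the 127 with 19 to under 20 reads one of -0.60. With introns split into 3 equal parts by their level in the crosslinked libraries, the medians from low to high were -1.61, -0.85 and -0.75. For exons they were -0.71, -0.58 and -0.64.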

How the data were processed

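For each library the authors deposited estimated counts of annotated features, fractional where a read fits several annotations and summing to a whole number, and these were used as given. The deposited RPM values, which count rRNA and unannotated reads in the total, were not used, and RPM was recomputed over annotated reads. Tools named in the submitters' processing notes are bcl2fastq 2.19, STAR 2.5.2b and bedtools 2.29.0, with the builds dm6 and mm10 and no roles given. How reads matching several features were shared and whether PCR copies were removed is not given in the sources used here.

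The members and lists were chosen with earlier results of these data known. Genes named are the 10 items with most reads in each library, the 10 highest and 10 lowest ratios among items with at least 100 reads, the 3 highest and lowest by class, and the kept members of the gene lists. Other mitochondrial tRNAs, tRNA isotypes, pseudogenes and piRNA clusters were chosen after their values were seen. Copies of U snRNAs and of 7SL were summed. Intervals are exact conditional binomial intervals at 95%. Genes that carry a snoRNA were found from the RefSeq gene table of Release 6 plus ISO1 MT, in which 2726 of 2908 gene names matched. On simulated counts for the 4090 items, of which 200 were changed 4-fold, 98.4% of the changed items passed 2-fold, and 125 unchanged items did. The simulated counts held Poisson counting error only, with no other variation between libraries and no PCR copies. They therefore cannot tell how many of the items past 2-fold in the data would repeat. Alternatives used TMM from edgeR 4.0.16 and size factors from DESeq2 1.42.0 in R 4.3.3. Other steps used Python 3.11.15 with SciPy 1.17.1 and matplotlib 3.10.9. No sequence is printed, since the files used here hold none.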

Additional observations from a re-analysis of the deposited data

Results flagged for a closer look

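Several classes moved one way in the non-crosslinked pair and the opposite way in every combination of the crosslinked IPs and inputs, and this difference was not tested, since each non-crosslinked group has 1 library. The non-crosslinked share ratio was 0.0708 for tRNA, 0.590 for mitochondrial tRNA, 0.734 for mRNA introns, 0.388 for LINE transposons, 0.587 for lncRNA and 0.387 for items of no other class, all of which were above 1 with UV light. It was 1.38 for snoRNA and 1.02 for rRNA, which were below 1 with UV light. Which of these go with the non-crosslinked input, which stood apart from the crosslinked inputs, was not tested.

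Reads without annotation lay outside the comparisons. They made up 12.9% of reads in the non-crosslinked IP and 4.07% in its input, where the crosslinked IPs had 5.54% and 5.99% and their inputs 1.98% and 2.22%.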

How the results depend on the processing

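No paired analysis was possible because each non-crosslinked group has 1 library, and for the same reason no replicate could be left out. The counts of items at least 2-fold higher and lower were 331 and 1487. They were 227 and 747 with a minimum of 50 reads, 157 and 387 with 100, 1853 and 6445 with 1 or more reads, 121 and 435 at 4-fold, and 538 and 1618 with features not summed. With TMM they were 724 and 649, and with DESeq2 size factors 740 and 625, which shift all ratios up by 0.69 and 0.72, so the higher items went from 18.2% of those past 2-fold to 52.7% and 54.2%. With the crosslinked inputs as the reference, a setting chosen after seeing the data, as was the total without piRNAdb-15, they were 200 and 2047.

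Share ratios moved with the total. Without rRNA in it they were 0.0787 for tRNA, 4.07 for snRNA, 1.53 for snoRNA, 0.705 for mRNA exons, 0.815 for introns, 1.06 for LTR transposons and 22.1 for piRNA clusters, and no such value exists for rRNA. With unannotated reads in it they were, in the same order, 0.0643, 3.33, 1.25, 0.577, 0.667, 0.866 and 18.04, with 0.926 for rRNA. Without piRNAdb-15 in it they were 0.0735, 3.80, 1.43, 0.659, 0.762, 0.990 and 2.24, with 1.06 for rRNA. Without the member with most reads the ratio was 0.228 for tRNA, 4.38 for snRNA, 1.26 for snoRNA, 0.987 for rRNA, 0.650 for exons, 1.25 for LTR transposons and 2.16 for piRNA clusters. The directions of rRNA and of LTR transposons, which lay near 1, are therefore not settled.

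Against the crosslinked inputs the ratio was 1.09 for tRNA, 0.874 for snRNA, 0.230 for snoRNA, 1.09 for rRNA, 0.525 for exons, 0.614 for introns, 0.373 for LTR transposons, 14.7 for piRNA clusters and 1.09 for mitochondrial tRNA. The log2 value turned to -0.13 for ribosomal protein introns, -0.92 for C/D snoRNAs, -0.23 for 5S rRNA, 0.37 for tRNA-Glu, -0.42 for CR43604, -1.21 for Uhg4 and 0.73 for CR45940. Of 86 values of items and lists 15 took the other sign, these 7 from past 2-fold and 8 from within it, among them mitochondrial mRNAs at 0.52, U3 at -1.99 and tRNA-Cys at 2.17. Over single features the other LINE elements turned to 0.03. The cause was not tested. Of the other recomputed values of single items, lists and some class shares, 370 stayed within a 95% counting margin of the main value and 316 moved further. The 8 that turned from within 2-fold are counted among these. For a list the margin came from the interval of its summed reads, which is not an error of its median. With 3 reads worth 1.31 RPM in the IP, items with no IP read have only a bound, and those with 1 to 3 have a ratio with a wide interval.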
